A study of Mus musculus with 26 samples.

Results

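The genes described here are 10 genes that ERK signalling switches on and whose products mostly hold the pathway back: the phosphatase genes Dusp6, Dusp4 and Dusp5, the Sprouty genes Spry1, Spry2 and Spry4, the related Spred1 and Spred2, and the transcription factor genes Etv4 and Etv5. They are 10 of the 55487 genes in each count table, and all 10 passed the filter on low counts that left 18050 genes. The set was chosen by name after a lower level of Dusp6 in the mutant cortex had been seen in these same libraries, so the values of HET against WT were used in choosing it. Those values are therefore given below as a description. The animals were adolescent mouse littermates, either heterozygous for a frameshift mutation of Adnp (HET) or wild-type (WT), and RNA came from the frontal cortex of 7 mice per genotype, named HET1 to HET7 and WT1 to WT7. Adnp encodes activity-dependent neuroprotective protein, a chromatin-associated zinc-finger protein. RNA was extracted from the tissue, with no sorting of cells named in the protocols. ATAC-seq, which marks DNA open to a transposase, was deposited as 1 list of peaks per genotype.

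Growth factors and synaptic activity pass through Ras, RAF and MEK to the kinases ERK1 and ERK2, which enter the nucleus and change transcription. Among the genes they induce are brakes on the same pathway. Dusp6 encodes a cytoplasmic phosphatase that removes phosphate from ERK, and Dusp4 and Dusp5 encode nuclear phosphatases of the same family. Sprouty and Spred proteins act upstream, at the level of Ras and RAF. Etv4 and Etv5 are ETS-family transcription factors whose transcription follows fibroblast growth factor and ERK signalling and which carry the signal on to other genes. In cortical neurons the pathway also drives the immediate early genes, such as Egr1 and Arc.

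The HET libraries held between 33280785 and 47079906 counts and the WT libraries between 32814841 and 48291175. All levels below are in CPM, which are counts scaled to library size. The mutated gene measured 6.90 ± 1.30 CPM in HET against 6.55 ± 0.875 in WT (SD, 7 mice per group; log2 fold change 0.07). Markers of excitatory cortical neurons were lower in HET for 10 of 10 genes (median log2 fold change -0.98, 0 called). Their summed level ran from 1030 to 6680 CPM in HET and from 2940 to 8830 CPM in WT, with HET4 and HET1 lowest among HET and WT4 lowest among WT. The most abundant of them, Camk2a, measured 1920 ± 867 CPM in HET against 3180 ± 869 in WT. Markers of thalamic neurons, which lie outside the cortex, were higher in HET for 8 of 8 genes (median 1.23, 0 called), with sums of 215 to 1960 CPM in HET and 147 to 674 CPM in WT. Rora, the thalamic marker with the highest CPM in WT, measured 121 CPM in HET against 80.4 in WT, the smallest log2 fold change of the 8 (0.59). Some members moved with these markers, with the values given below. Sums of striatal neuron markers ran from 170 to 2360 CPM in HET and from 183 to 1760 CPM in WT, so they spread widely within each genotype. In bulk tissue, fewer cells of a type and less RNA per cell cannot be told apart. How the pieces of tissue differed between mice was not tested.

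Dusp6 (ENSMUSG00000019960, GRCm38 chromosome 10, 99263231 to 99267489, plus strand) was the member with the largest difference. In HET it measured 24.4, 45.8, 47.1, 33.7, 47.5, 61.4 and 43.0 CPM in HET1 to HET7. In WT it measured 77.1, 89.6, 92.0, 45.1, 110, 87.6 and 66.9 CPM in WT1 to WT7. Of the 7 WT libraries, 6 lay above the highest HET library, and the remaining one, WT4, lay inside the HET range, above HET1, HET4 and HET7 and below the other HET libraries. The means were 43.3 ± 11.7 CPM in HET against 81.2 ± 20.8 in WT (SD, n = 7 each), a level 46.7% lower in HET. The log2 fold change was -0.91 (SE 0.20, 95% confidence interval -1.34 to -0.48), and the adjusted p was 0.0499 in edgeR's quasi-likelihood test over all genes. Dusp6 was 165th by p among the 175 genes called, so it stood just inside the threshold. It was called in 2 of the 14 fits that each left out a library, without HET6 (adjusted p 0.0249) and without WT4 (adjusted p 0.00824), and the log2 fold change ran from -1.01 to -0.81 over those fits. Of the 10 other alternatives, 4 called Dusp6. Among them were DESeq2 (adjusted p 0.000973) and limma-voom with sample weights (adjusted p 0.00922), which called 1503 and 1886 genes in all. With the mean of the excitatory markers as a covariate the log2 fold change of Dusp6 was -0.49 (adjusted p 0.286, edgeR).

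Dusp5 (ENSMUSG00000034765, chromosome 19, 53529109 to 53542431, plus strand) had the second largest difference. It ran from 2.50 CPM in HET1 through a median of 11.3 to 14.6 CPM in HET, and from 9.96 through 15.7 to 29.2 CPM in WT. The groups overlapped: 3 HET libraries lay below the lowest WT library, and 5 WT libraries lay above the highest HET library. Its log2 fold change was -0.79 (95% interval -1.48 to -0.11, adjusted p 0.169 in edgeR), and the single library HET1, with 96 counts for the gene, was the lowest of all 14. Dusp4 (chromosome 8, 34807297 to 34819894, plus strand) measured 15.5 ± 1.92 CPM in HET against 19.3 ± 5.29 in WT (SD, n = 7 each), a log2 fold change of -0.32 (-0.67 to 0.04, adjusted p 0.270 in edgeR). The WT libraries spread on both sides of the HET libraries, from 9.79 CPM in WT2 to 25.8 CPM in WT3, while HET ran from 12.1 to 17.3 CPM.

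The DNA just before the starts of Dusp6 and Dusp5 is shown because these phosphatase genes had the largest differences among the members. The stretches are from the RefSeq promoter table for GRCm38.p6, both on the plus strand and read 5′ to 3′ toward the gene: 250 bases for Dusp6 (chr10:99262981-99263230) and 214 bases for Dusp5 (chr19:53528895-53529108). The Dusp5 stretch stops just before the gene start given above, which lies upstream of the RefSeq start. Distances to the RefSeq start are therefore longer than those to its last letter. Capitals mark matches to CArG boxes, the binding sequence of serum response factor, and to CGTCA, which is TGACG on the other strand.
Dusp6: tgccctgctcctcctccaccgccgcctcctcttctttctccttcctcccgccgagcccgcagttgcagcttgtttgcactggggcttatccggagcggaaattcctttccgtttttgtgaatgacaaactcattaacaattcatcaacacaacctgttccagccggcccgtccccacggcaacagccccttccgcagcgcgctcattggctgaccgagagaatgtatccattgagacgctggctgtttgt
Dusp5: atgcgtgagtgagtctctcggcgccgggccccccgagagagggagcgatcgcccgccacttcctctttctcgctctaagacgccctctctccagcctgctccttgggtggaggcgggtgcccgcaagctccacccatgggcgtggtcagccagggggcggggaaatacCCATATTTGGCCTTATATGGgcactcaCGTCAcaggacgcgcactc
A set of 7 motifs linked to ERK-driven or basal transcription were searched on both strands of the 250 bases before each RefSeq start: an ETS motif CCGGAAG, the cyclic AMP response element TGACGTCA, its core TGACG (which every full element also holds), AP-1 TGANTCA, EGR GCGNGGGCG, the GC box GGGCGG and the CArG box. The Dusp6 stretch held 0 matches to any of the 7, which says only that these letters are not in this window. The Dusp5 stretch held adjacent CArG boxes, CCATATTTGG from 82 to 73 and CCTTATATGG from 72 to 63 bases before the RefSeq start, and the TGACG from 55 to 51 bases before it, besides 1 GC box. A CArG box was present in 1.47% of the 32851 promoters in the table and TGACG in 17.8%. Of all 32851 promoters, 6 (0.0183%) held 2 or more CArG boxes. They belonged to Gm33934, Ceacam11, Gm39572 (more than 1 promoter), Dusp5 and Srf, the gene of serum response factor itself. The other motifs were present in 6.91% (ETS), 1.55% (the full cyclic AMP response element), 6.75% (AP-1), 4.70% (EGR) and 32.7% (GC box) of promoters. Promoters were in the table for 7 of the 10 members, and CArG boxes were found in that of Dusp5 alone. The TGACG core was also found before Spred2, and GC boxes before Spry1, Spred1, Spred2 and Etv5.

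The Sprouty genes did not move as a group. Spry2 (chromosome 14, 105891947 to 105896819, minus strand) ran from 22.3 through a median of 38.4 to 54.8 CPM in HET and from 37.9 through 51.9 to 58.7 CPM in WT. The libraries HET1, HET2 and HET4 lay below the lowest WT library and the other 4 inside the WT range, with a log2 fold change of -0.41 (95% interval -0.77 to -0.04, adjusted p 0.182 in edgeR). Spry1 and Spry4 had nearly equal means in the genotypes. Spry1 (chromosome 3, 37639947 to 37644598, plus strand) measured 8.98 ± 1.52 CPM in HET against 9.28 ± 1.9 in WT, a log2 fold change of -0.05 (-0.35 to 0.26, adjusted p 0.875 in edgeR). Spry4 (chromosome 18, 38586247 to 38601415, minus strand) measured 20 ± 4.75 CPM in HET against 20.7 ± 1.97 in WT, also -0.05 (-0.34 to 0.24, adjusted p 0.868 in edgeR). In Spry4 the HET libraries spread on both sides of the WT range, from 12.2 CPM in HET6 to 25.7 CPM in HET4.

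Spred1, the most abundant member (chromosome 2, 117121374 to 117182279, plus strand), measured 195 ± 24.7 CPM in HET against 227 ± 54.5 in WT (SD, n = 7 each; log2 fold change -0.22, 95% interval -0.51 to 0.06, adjusted p 0.332 in edgeR). Spred2 (chromosome 11, 19924375 to 20024026, plus strand) measured 81.8 ± 16.2 and 105 ± 32.9 CPM (-0.36, interval -0.75 to 0.03, adjusted p 0.259). In both genes the WT mean was raised by the same pair of mice. WT1 and WT3 measured 308 and 299 CPM for Spred1 and 153 and 149 CPM for Spred2, whereas the other 5 WT mice ran from 171 to 223 and from 70.4 to 97.2 CPM, which overlapped HET (158 to 234 and 61.7 to 105 CPM). The lowest WT library of both genes was WT4, without which the log2 fold changes were -0.28 (adjusted p 0.165) and -0.44 (adjusted p 0.125) in edgeR.

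Of the ETS factor genes, Etv5 (chromosome 16, 22381309 to 22439719, minus strand) measured 61.5, 66.2, 95.8, 50, 98.3, 80.9 and 84.9 CPM in HET1 to HET7. It measured 183, 122, 162, 62.1, 123, 103 and 101 CPM in WT1 to WT7. As for Dusp6, 6 WT libraries exceeded the highest HET library, and WT4 again lay among the HET libraries. The log2 fold change was -0.67 (SE 0.21, 95% interval -1.13 to -0.21), and the adjusted p of 0.103 in edgeR missed the threshold. It passed under DESeq2 (adjusted p 0.0253), limma-voom with sample weights (0.0486) and in edgeR without WT4 (0.0203), and over the other alternatives of processing it did not. Its relative Etv4 (chromosome 11, 101769742 to 101785371, minus strand) was lower than Etv5 in both genotypes, at 8.92 ± 1.32 CPM in HET against 9.71 ± 0.718 in WT, a log2 fold change of -0.12 (-0.33 to 0.08, adjusted p 0.479 in edgeR).

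**Figure D1:**
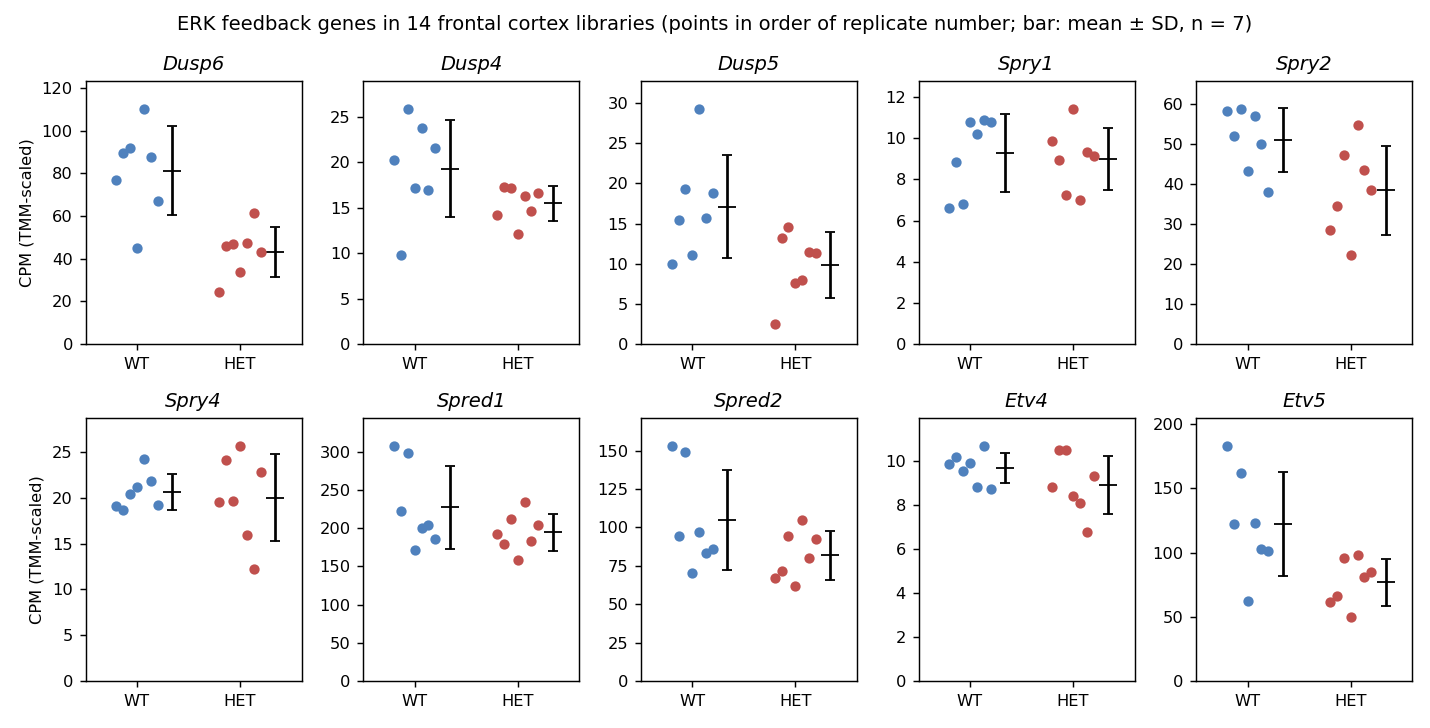
TMM-scaled CPM (vertical axes, each from 0) of the 10 members in 7 WT (blue) and 7 HET (red) libraries, with points in order of replicate number and the mean ± SD beside them. Dusp6 and Etv5 each have 6 WT libraries above the highest HET library and WT4 among the HET libraries, while Spry1, Spry4 and Etv4 overlap broadly.

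Counted together, 1 of the 10 members, Dusp6, passed an adjusted p of 0.05 in edgeR, in the lower direction. Over all genes tested 0.382% were called lower, 0.587% higher and 0.97% in either direction. At unadjusted p under 0.05 there were 4 members (Dusp6, Dusp5, Spry2 and Etv5) and 4007 genes in all. The log2 fold change was below 0 for 10 of 10 members and for 8431 of 18050 genes, with medians of -0.34 and 0.02. For 0 of the 10 members did all 7 HET libraries lie below the lowest WT library, against 0.283% of all genes, and for 0 did all 7 lie above the highest, against 0.432%. As the contrast had been seen when the members were picked, these counts are not read as evidence for the set.

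Per kilobase of exon, the members formed an upper group of 5 and a lower group of 5. The median over all genes tested was 3.46 CPM per kb in WT. Of the lower group, Dusp4, Dusp5 and Spry4 lay above that median, and Spry1 and Etv4 lay slightly below it. In WT, Spred1 (33.5 ± 8.03 CPM per kb), Etv5 (29.8 ± 9.82), Dusp6 (25.9 ± 6.62), Spry2 (24.4 ± 3.81) and Spred2 (22.7 ± 7.11) overlapped one another across mice. The next gene, Dusp4, reached at most 9.42 CPM per kb, below the lowest Spred2 library at 15.2. Dusp4 (7.04 ± 1.93), Dusp5 (6.90 ± 2.59), Spry4 (4.35 ± 0.417), Spry1 (3.19 ± 0.654) and Etv4 (3.13 ± 0.228) formed the lower group. Neighbours in that order overlapped across mice except for Spry1, which reached at most 3.75 CPM per kb, below the lowest Spry4 library at 3.93. In HET the same genes made up the upper group, but Dusp6 came last of the 5, at 13.8 ± 3.72 CPM per kb (SD, n = 7 each).

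The rest of the pathway was examined from lists of genes ordered from ligand to output. Of 18 growth factor ligands, 15 receptor tyrosine kinases, 18 adaptors and Ras regulators, 14 genes of the Ras-RAF-MEK-ERK core and 11 ERK substrates, 1 gene was called in edgeR. It was Rasa2, which encodes a GTPase-activating protein that switches Ras off, at 28.9 ± 2.51 CPM in HET against 37.7 ± 4.42 in WT (log2 fold change -0.38, SE 0.08, adjusted p 0.0456). In Rasa2, 4 HET libraries lay below the lowest WT library, and the call held in 4 of the 14 fits without a library and in 5 of the 10 other alternatives. The median log2 fold changes were 0.12 for ligands, 0.07 for receptors, 0.11 for adaptors, -0.09 for the core and -0.15 for substrates, beside 0.02 over all genes. The genes with the highest WT level per kb in these lists were Pdgfa, a platelet-derived growth factor (log2 fold change -0.11), Ntrk2, the receptor of brain-derived neurotrophic factor (0.07), Rasgrp1, a calcium-responsive Ras activator (-0.63, adjusted p 0.110), Map2k1, which encodes MEK1 (-0.18), and Srf (-0.37, adjusted p 0.118). None of these 5 passed the test in edgeR.

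On the output side, 0 of 8 other MAP kinase phosphatase genes, 0 of 10 other ERK output genes and 0 of 12 immediate early genes were called in edgeR. At unadjusted p under 0.05 there were 2, 3 and 11 of them, beside 4007 of all 18050 genes tested. The median log2 fold changes were -0.22, -0.09 and -1.18. DESeq2 called 20 genes over the 8 pathway lists in all, beside 1503 of all genes tested (8.33%). Among the 20 were the immediate early genes Fosb, Fosl2, Egr1, Egr2, Egr3, Egr4, Arc, Nr4a1 and Ier2. All 12 immediate early genes had lower means in HET, with log2 fold changes from -1.78 (Arc) to -0.78 (Npas4). Egr1, the one with the highest level per kb, ran from 74.5 to 341 CPM in HET and from 326 to 779 CPM in WT, a log2 fold change of -1.20 (95% interval -1.85 to -0.55, adjusted p 0.0643 in edgeR). The most abundant genes per kb of the other lists were Dusp8, a phosphatase of stress-activated kinases (-0.13, adjusted p 0.387), and the ephrin receptor Epha4 (-0.58, adjusted p 0.0904). Among the other phosphatases the log2 fold changes ran from -0.86 for Dusp14 (adjusted p 0.0875 in edgeR), close to that of Dusp6, to 0.14. No difference between lists was tested.

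**Figure D2:**
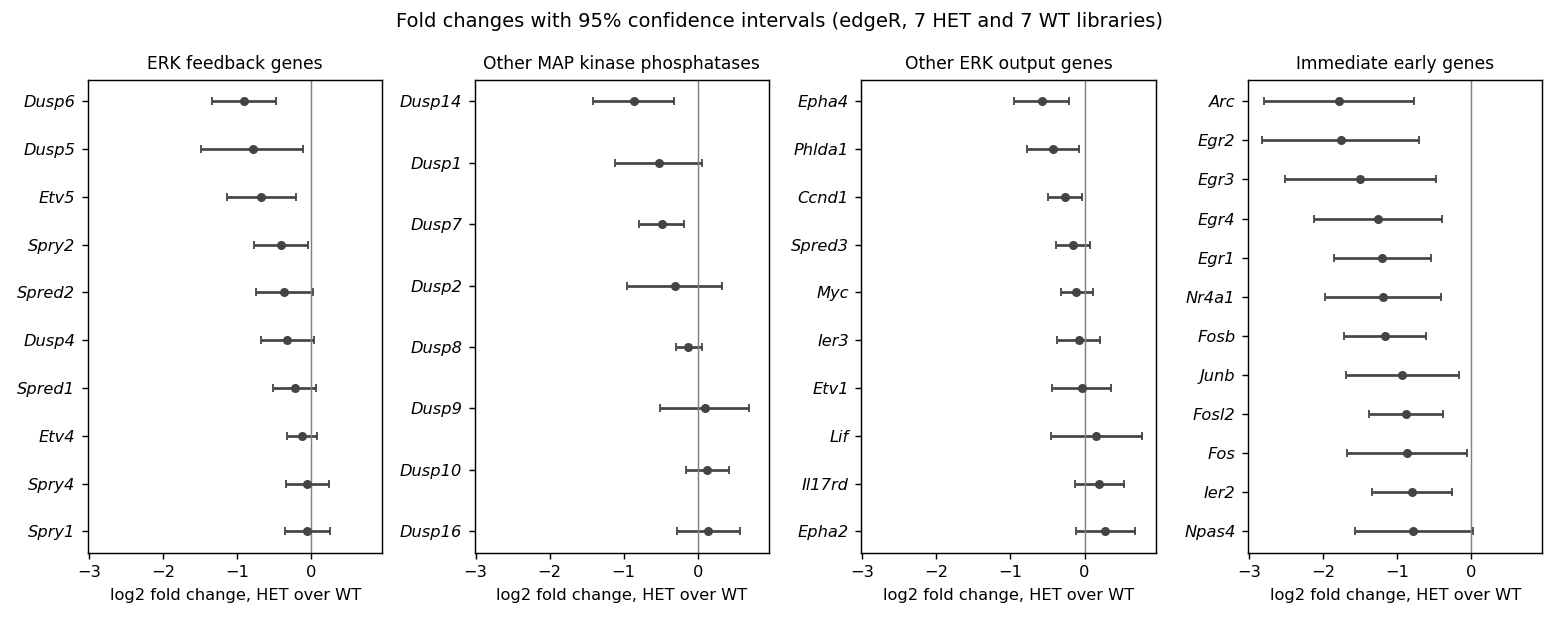
Log2 fold change of HET over WT (horizontal axis) with 95% confidence intervals from edgeR for the 10 members, 8 other MAP kinase phosphatases, 10 other ERK output genes and 12 immediate early genes. All 10 members lie below 0, from -0.91 (Dusp6) to -0.05 (Spry1 and Spry4), and all 12 immediate early genes lie between -1.78 and -0.78.

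The spread between mice of the same genotype was not used in choosing the members, so it was tested separately. The gene lists set beside the members were chosen with earlier results of these data known. The mean of each genotype was subtracted from log2 CPM, and Dusp6 was related to the 9 other members and to the means of 4 gene lists over the 14 mice (13 relations, permutation of mice within genotype, Benjamini-Hochberg over the 13). Mice with little Dusp6 for their genotype had low immediate early genes. Pearson's r was 0.80 (permutation p 0.00094, adjusted 0.0122), Spearman's rho 0.69 (permutation p 0.00654, adjusted 0.0342), and r was 0.89 within HET and 0.71 within WT. Leaving out WT4 and HET1, whose Dusp6 lay farthest from the median, gave 0.73. The excitatory marker mean followed Dusp6 about as closely, with r = 0.78 (permutation p 0.00369, adjusted 0.0162), rho 0.66 (permutation p 0.0133, adjusted 0.0411) and r = 0.68 without those mice. The immediate early and excitatory means were thus not separable as partners of Dusp6 in these 14 mice. The thalamic mean went the other way (r = -0.61, permutation p 0.0273, adjusted 0.0591; rho -0.72, permutation p 0.0079, adjusted 0.0342; r = -0.71 without those mice), and the striatal mean had r = -0.12 (permutation p 0.698, adjusted 0.698) and rho -0.02 (permutation p 0.966, adjusted 0.966).

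Among the members, 3 of 9 were related to Dusp6 at an adjusted p under 0.05. Such a relation was not particular to them: by r, Dusp5, Spry2 and Etv5 stood within the top 3.6%, 9.22% and 10.1% of 10802 genes ranked by their likeness to Dusp6. Spry2 was the steadiest partner, with r = 0.67 (permutation p 0.0113, adjusted 0.0367), rho 0.73 (permutation p 0.00405, adjusted 0.0342), r = 0.70 in HET and 0.69 in WT, and r = 0.70 without WT4 and HET1. Dusp5 had r = 0.75 (permutation p 0.00373, adjusted 0.0162) and rho 0.65 (permutation p 0.0158, adjusted 0.0411), but r was 0.49 without those mice. Etv5 had r = 0.66 (permutation p 0.016, adjusted 0.0417) and rho 0.60 (permutation p 0.0355, adjusted 0.0769), and 0.38 without them. The r of Dusp5 and Etv5 with Dusp6 was thus lower without WT4 and HET1, and it was not tested in the remaining mice. Within HET and WT, r was 0.84 and 0.65 for Dusp5 and 0.63 and 0.69 for Etv5. The r of the remaining 6 members with Dusp6 ran from -0.36 (Spry1) to 0.49 (Spred2), and none passed the permutation test after adjustment.

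**Figure D3:**
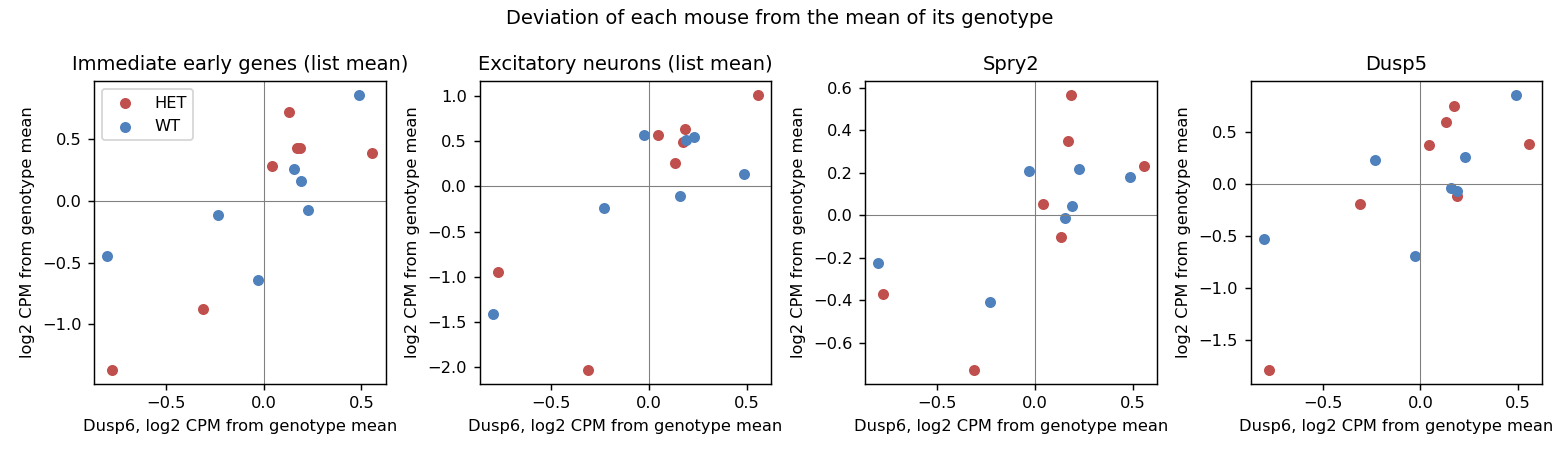
Deviation of Dusp6 from its genotype mean (horizontal axis, log2 CPM) against that of the immediate early gene mean, the excitatory marker mean, Spry2 and Dusp5 (vertical axes, log2 CPM) in 7 HET (red) and 7 WT (blue) mice. HET1 and WT4 sit at the far left of each panel, and r over the 14 mice is 0.80, 0.78, 0.67 and 0.75 in that order.

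The other members were then related to one another and to the immediate early and excitatory means in the same way, in a family of 54 relations that was added after the data had been seen. Spred1, Spred2, Etv5 and Spry2 rose and fell together from mouse to mouse: r was 0.95 for Spred1 with Spred2, 0.94 for Spred2 with Etv5, 0.90 for Spred1 with Etv5, and 0.78, 0.74 and 0.68 for Spry2 with Etv5, Spred2 and Spred1. The permutation p adjusted over the 54 was 0.00586 for Spry2 with Spred1 (raw 0.00152) and smaller for the other 5 pairs, rho ran from 0.73 to 0.97, r ran from 0.85 to 0.97 within HET and from 0.73 to 0.98 within WT, and r was at least 0.59 without the 2 mice farthest from the median of the first gene. Spry1 ran against these genes, with r = -0.94 to Spred1, -0.93 to Spred2, -0.86 to Etv5 and -0.75 to Spry2 (permutation p 4e-05, 2e-05, 5e-05 and 0.00092, adjusted over the 54 to 0.00045, 0.00045, 0.00045 and 0.00414; rho from -0.93 to -0.73), although it belongs to the same family as Spry2. It was 6.62 and 6.78 CPM in WT1 and WT3, the mice with most Spred1, and 11.4 CPM in HET4, the mouse with least. These 10 pairs were the ones at an adjusted p under 0.05 of the 36 without Dusp6. How many pairs among all genes reach such r was not computed, so these relations are not shown to be particular to the members. The main axis of spread over all genes tested (first principal component, genotype means kept) held 39.1% of the variance. WT1 and WT3 stood highest on it, at 64.55 and 58.54, and HET4 lowest, at -76.42.

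Dusp5 was not shown to belong to that group. Its r with Spred1, Spred2, Etv5 and Spry2 was -0.05, 0.18, 0.27 and 0.37 over all mice. None passed the permutation test after adjustment. Without the 2 mice farthest from the median of Dusp5 these r were 0.27, 0.4, 0.56 and 0.37. Within HET they were 0.08, 0.43, 0.45 and 0.46, and within WT -0.19, -0.06, 0.11 and 0.12. The values without those mice and within a genotype were not tested. With the immediate early mean Dusp5 had r = 0.87 (permutation p 0.00025, adjusted 0.0015) and rho 0.85 (permutation p 0.00048, adjusted 0.00236). This r was 0.87 within HET, 0.88 within WT and 0.83 without the 2 mice farthest from the median of that mean. Dusp5 was the one member of the 9 to pass there. With the excitatory mean the r of Dusp5 was 0.47 (permutation p 0.148, adjusted 0.393), at 0.56 within HET and 0.24 within WT. Etv5 passed with the excitatory mean instead, at r = 0.84 (permutation p 7e-05, adjusted 0.00054) and rho 0.86. With the immediate early mean Etv5 had r = 0.34 (permutation p 0.216, adjusted 0.434). That r was 0.69 within HET and 0.0 within WT, beside 0.87 and 0.94 with the excitatory mean. The contrast between the means was thus smaller within HET, which was not tested. Spry2 (r = 0.84), Spred2 (0.72), Spred1 (0.64) and Spry1 (-0.66) also passed against the excitatory mean, with permutation p of 0.00104, 0.00088, 0.00482 and 0.0075, adjusted over the 54 to 0.00432, 0.00414, 0.0174 and 0.0253. Whether the r of a gene with one mean differed from its r with the other was not tested. The share of all genes that would pass against either mean was not computed. Dusp4, Spry4 and Etv4 passed in no relation of either family, and the highest r among them was 0.59, between Spry4 and Etv4.

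**Figure D4:**
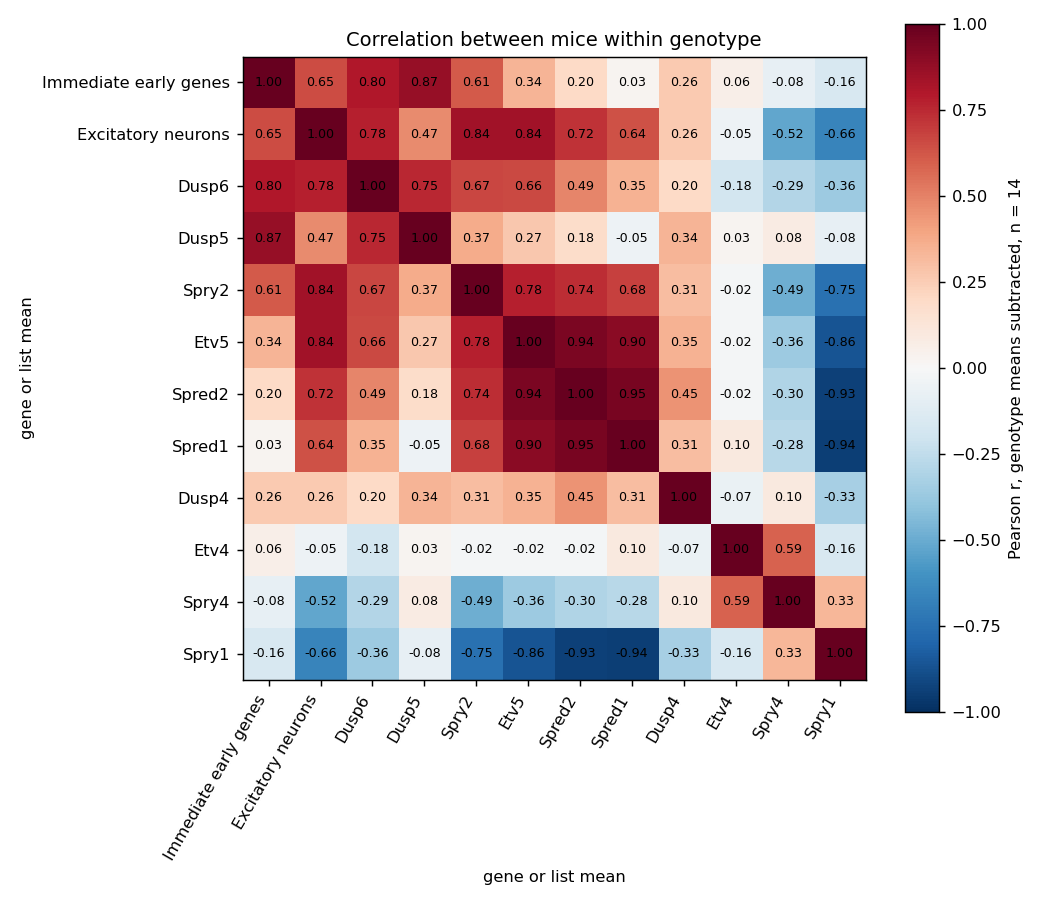
Pearson's r over 14 mice, genotype means subtracted (colour scale from -1 to 1), between the 10 members and the means of the immediate early and excitatory marker lists. Spred1, Spred2, Etv5 and Spry2 form a block of r from 0.68 to 0.95 with Spry1 opposed to it, while Dusp5 and Dusp6 have r of 0.87 and 0.80 with the immediate early mean.

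The excitatory marker mean itself was 6.33 ± 1.09 log2 CPM in HET and 7.57 ± 0.71 log2 CPM in WT (SD, n = 7 each). With it as a covariate in edgeR the log2 fold change of HET against WT was 0.03 for Spred1, 0.02 for Spred2, -0.04 for Spry2 and -0.14 for Etv5, and -0.43 for Dusp5 and -0.49 for Dusp6. None of these 6 passed in that fit, where the adjusted p ran from 0.286 (Dusp6) to 0.973 (Spred2). Spry1 and Spry4 moved to -0.29 and -0.25. Without HET4 and HET1, the libraries lowest in excitatory markers, Dusp6 stood at -0.73 on the log2 scale (adjusted p 0.138, edgeR), Dusp5 -0.54 and Etv5 -0.52. The label of the RNA also differed within HET: HET1 to HET4 were labelled total RNA and the other 10 libraries polyA RNA. Over the libraries labelled polyA RNA (3 HET and 7 WT) Dusp6 had -0.68 (adjusted p 0.427, edgeR). The label total RNA occurs in HET alone, so within it there is no comparison. Both families of relations between mice were taken over both labels, and the shuffling within HET did not keep the labels apart.

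Over 10802 genes with a mean of at least 3 on the log2 CPM scale, the genes whose deviations between the 14 mice were most like those of Dusp6 were Ccdc9 (r = 0.95), Cpne8 (0.91), Mlxip (0.90), Adrb1, the beta-1 adrenergic receptor gene (0.90), Frmd6 (0.89) and Sult2b1 (0.89). The median r of all ranked genes was 0.01, and 150 genes reached 0.8. Egr1 came 78th with r = 0.82 and the phosphatase gene Dusp7 105th with 0.81, ahead of Dusp5 (389th), Spry2 (996th) and Etv5 (1088th). All these genes were read from the same libraries, so they share depth and tissue makeup with Dusp6.

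At the chromatin level, a peak overlapped the window from 1 kb before to 1 kb after the gene start for 10 of 10 members in the HET list and for 9 of 10 in the WT list. Over all genes tested the shares were 63.6% and 57.2%. The HET list was longer, with 30862 peaks of a median width of 423 bases against 19272 peaks of 490 bases in WT, and with 1 list per genotype there is no replicate check. At Dusp6 the promoter peaks nearly coincided, at chr10:99262958-99263631 in HET (674 bases) and chr10:99262955-99263638 in WT (684 bases), and both cover the stretch printed above. A second peak lay upstream in both lists, reaching to 1191 bases before the start in HET and to 1394 bases before it in WT. The lower mRNA of Dusp6 in HET was therefore not matched by a missing peak at its start, and the lists carry no peak height to compare.

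Dusp5 was the member with a promoter peak in the HET list alone, a state found in 8.08% of genes. The reverse, a promoter peak in the WT list alone, was found in 0 members and 1.62% of genes. These shares move with the unequal lengths of the lists, and with the HET list limited to its 19272 widest peaks they were 4.68% and 4.19%. The HET peaks were a short one of 140 bases (chr19:53528967-53529106), which contains the CArG boxes and the TGACG printed above, and one of 399 bases inside the gene (chr19:53529413-53529811). Neither overlapped a WT peak. The shortened HET list holds no peak under 345 bases, so of these peaks it keeps the one inside the gene and drops the one over the CArG boxes. The gene thus had its lower mean mRNA in the genotype whose list holds the peak. Of the upper group by level per kb, Spred1 had promoter peaks of 1080 bases in HET and 1067 in WT, Etv5 of 805 and 1041, Spry2 of 927 and 735, and Spred2 of 525 and 463. The median of the widest promoter peak over genes was 666 bases in HET and 640 in WT. Etv5 also had a pair of peaks in the gene body in both lists, and Spred2 had 4 such peaks in HET and 1 in WT.

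**Figure D5:**
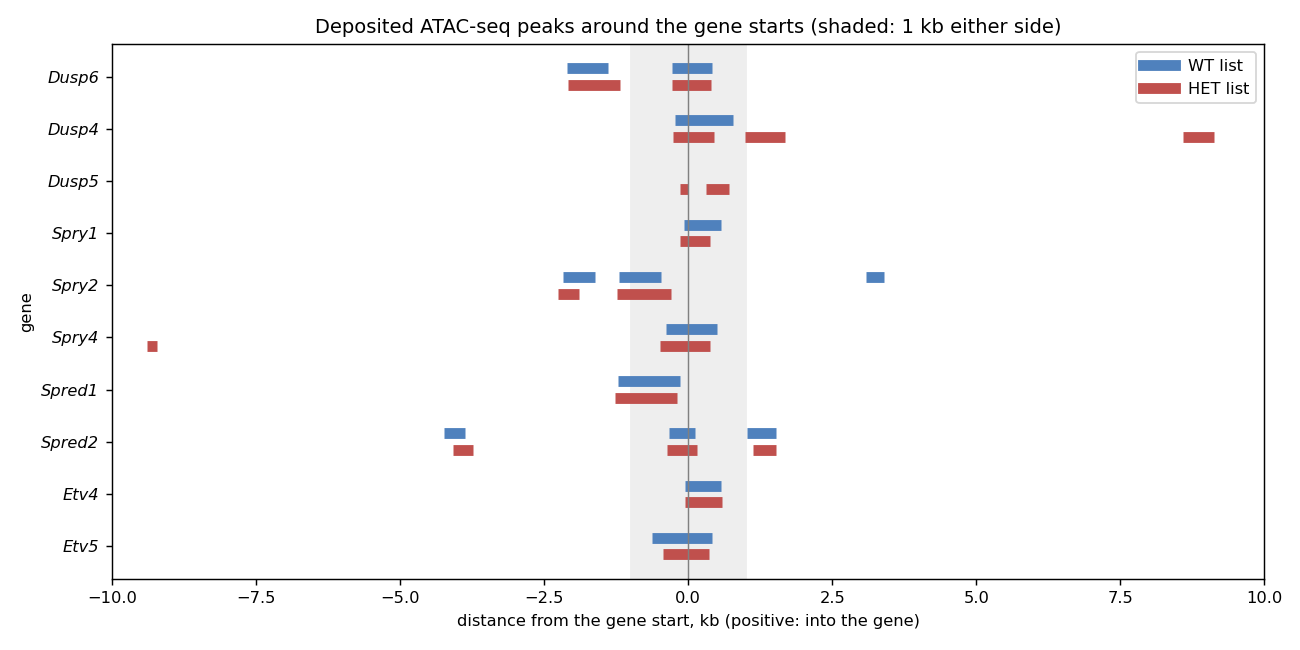
Deposited ATAC-seq peaks of the WT (blue) and HET (red) lists around the starts of the 10 members, by distance from the gene start in kb (horizontal axis, positive into the gene; shading, 1 kb either side). Of the 10 members, 9 have a peak in the shaded window in both lists, and Dusp5 has peaks there in the HET list alone.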

How the data were processed

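RNA sequencing covered the frontal cortex of 7 HET and 7 WT mice. The RNA files hold raw counts for each gene, as deposited, made by the authors with featureCounts 2.0.1 over Ensembl release 102 exons with strand ignored, per the file headers. Antisense or overlapping transcripts can therefore add to a gene's count. STAR, Trimmomatic and the build GRCm38.p6 were named per the submitters' processing notes. The ATAC-seq files hold peak positions only, 1 deposited list per genotype, for which MACS3 was named per the submitters' processing notes. The labels do not name the libraries behind each list, and PAT, Control and Hi-C samples were not analysed here.

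Of 55487 gene IDs, 55141 matched a symbol. Genes were kept by filterByExpr, TMM-normalised and compared in edgeR 4.0.16 by the two-sided, robust quasi-likelihood test with genotype as the single term, with Benjamini-Hochberg adjustment over 18050 genes and a threshold of 0.05. A gene is called when it passes that threshold. The SE was derived from the F statistic. CPM values are TMM-scaled, and levels per kb use exon length. Relations between mice used log2 CPM with a prior count of 2 and 100000 permutations within genotype. P-values judge a difference or a relation against the spread between these mice. No library pair looked like copies of each other (91 pairs, chi-square per degree of freedom at least 10.2).

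The members, gene lists, motifs and tests were chosen with earlier results of these data known. All members were named, and from each pathway list the called genes and the gene with the highest WT level per length. The 6 genes most like Dusp6 were also named, and others where a result turns on them. Of the 12 cell type marker lists, those other than excitatory and thalamic neurons had medians from -0.66 (blood, 1 gene called) to 0.33 (striatal neurons). Alternatives were DESeq2 1.42.0, its size factors, other filters, a block on replicate numbers, limma-voom 3.58.1 with sample weights, marker covariates, the RNA label, each library left out, a prior count of 0.5, and other peak windows. Leaving out the 2 libraries lowest in excitatory markers and the family of 54 relations were chosen after seeing the data.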

Additional observations from a re-analysis of the deposited data

Results flagged for a closer look

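In WT4 the mean of the excitatory neuron markers was 6.154 log2 CPM, apart from the other 6 WT libraries, of which the nearest stood at 7.329. The gap was 0.59 of the range of the group, above Dixon's critical value for a group of 7. It was the single such case among 28 groups examined. Chance gives such a case in about 1 of 20 groups, so 1 case among 28 is about what chance would give. WT4 was also the WT library with the lowest Dusp6, Spred1, Spred2 and Etv5, and the fits without it are given with those genes.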

How the results depend on the processing

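Over 24 alternatives, 240 values of the members' log2 fold changes gave 219 on the same side of the threshold, 18 that lost the call (all Dusp6) and 3 that gained it (all Etv5). The counts of all genes, members and pathway genes called were 175, 1 and 1 as reported, 1503, 2 and 20 with DESeq2, 1886, 2 and 21 with limma-voom, 106, 0 and 1 without a filter, 10, 0 and 0 with the excitatory covariate, 16, 0 and 0 with 3 marker covariates, 4, 0 and 0 in polyA-labelled libraries, and 13, 0 and 0 without HET4 and HET1, a choice made after seeing the data. With DESeq2's size factors, or with 1 CPM in 7 libraries, 2 pathway genes were called. Leaving out a library gave 11 to 1672 genes, 0 to 2 members and 0 to 19 pathway genes, with most calls without WT4. Under these settings fewer samples or terms change the test, and further causes were not tested. The replicate block gave 10 genes, 0 members and 0 pathway genes; same-numbered libraries correlated between -0.284 and 0.334, with 2 of 7 over 0.1 and 1 of 7 highest with its own number, so the numbers were not taken as pairs. The log2 fold change of Dusp6 stayed between -1.03 and -0.47 throughout. Promoter peak counts of the members, 10 and 9, were the same under windows of 500 bases and 2 kb, by peak centre, and, for HET, with lists of equal length. The lowest count of any member in a library was 96, for Dusp5 in HET1, a library of 36972799 counts that was not the shallowest.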
